A study of Homo sapiens with 18 samples.

Results

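Scaber is a human bladder cancer line that was established from a squamous cell carcinoma. Its control arrays were set here against those of 2 other urothelial cancer lines, UC14 and UC7. The Scaber members are the 3 arrays of cells given a non-targeting siRNA, out of 18 arrays in the series. They were chosen by their labels and not by any measured value. The comparison groups are 3 arrays of UC14 cells with a non-targeting shRNA and 3 arrays of UC7 cells labelled only as control. The study itself compared p63 shRNA with non-targeting shRNA in UC14, STAT3 siRNA with non-targeting siRNA in Scaber, and rosiglitazone (1 µM, 24 h) with control in UC7. Total RNA was measured on Illumina bead arrays. A line is here the same thing as its control treatment, so an effect of the line and an effect of siRNA or shRNA delivery cannot be told apart. Nothing in the labels ties the 3 arrays of a line to different cultures, so each p-value reflects array-to-array spread that could be purely technical.

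The bladder is lined by urothelium, in which basal cells carry keratins 5 and 14 and the superficial umbrella cells carry uroplakins and keratin 20. Luminal differentiation is driven by the transcription factors GATA3, FOXA1 and PPARγ. Squamous differentiation replaces that program with stratified-epithelium genes: desmosomal cadherins, several clade B serpins and S100 proteins, and the proteins of the cornified envelope.

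A gene was called Scaber-specific when it differed in the same direction from UC14 and from UC7, each at a limma adjusted p under 0.05. Of 11715 genes tested, 2174 (18.6%) were higher in Scaber than in both lines and 2364 (20.2%) were lower than in both. Both differences were at least 2-fold for 900 of the higher genes (7.68%) and 724 of the lower genes (6.18%), and at least 16-fold for 57 and 14. In the single comparisons, Scaber was higher than UC14 at 32.6% and lower at 34.6% of genes, and higher than UC7 at 32% and lower at 42.5%. A further 1536 genes passed both tests with opposite signs, so that Scaber lay between the other lines. With median scaling in place of quantile normalization, the share of passing genes that were higher in Scaber moved from 48.5% to 69.2% against UC14 and from 43% to 15.8% against UC7. The median of all genes then moved from -0.02 to 0.27 (log2) against UC14 and from -0.17 to -0.91 against UC7. Small differences from UC7 below are therefore read relative to that shift. Under median scaling 1262 of the 11715 genes were higher than both lines and 2048 were lower. List counts given below for median scaling are to be read beside these counts, and not beside 18.6% and 20.2%.

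**Figure D1:**
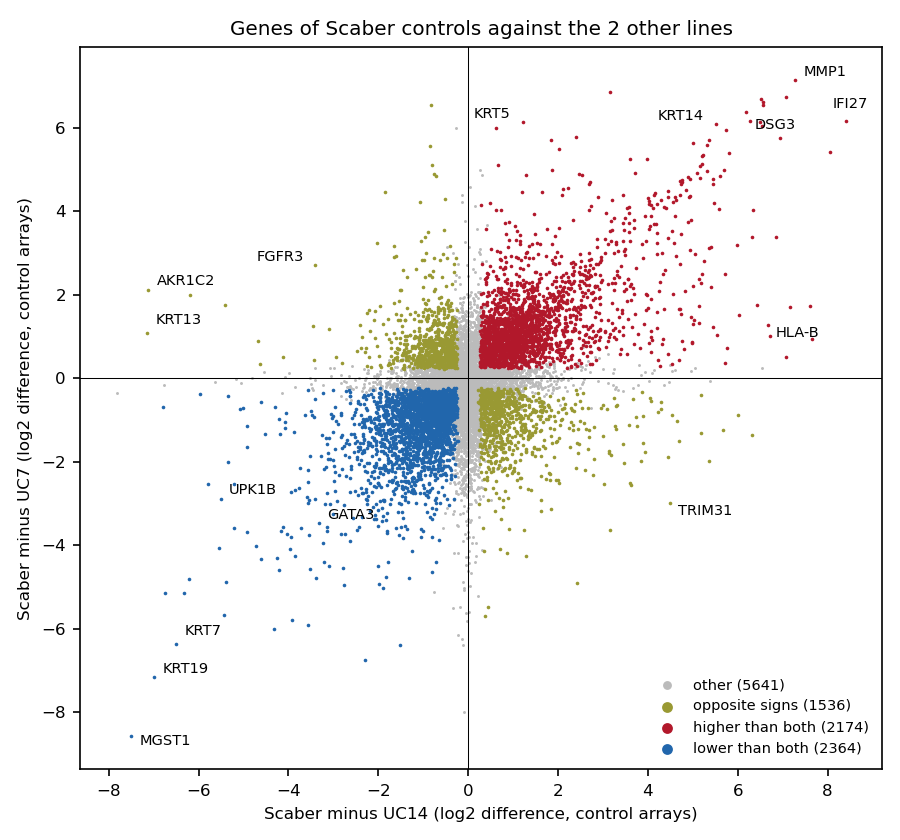
Each point is 1 of the 11715 genes, with the log2 difference of Scaber from UC14 on the x axis and from UC7 on the y axis (means of 3 control arrays per line). The 2174 red genes were higher in Scaber than in both lines, the 2364 blue genes lower than in both, and the 1536 olive genes passed both tests with opposite signs.

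The median raw signal was 111 to 116 on the Scaber arrays, 99.5 to 112 on the UC14 arrays and 51.6 to 55.4 on the UC7 arrays, and 17293 to 18021, 14032 to 15287 and 19963 to 20160 probes were detected (detection p under 0.01). Array background therefore differed between lines, and its part in the results was not tested. Normalized log2 values of arrays within a line correlated at 0.982 or more, and between lines at 0.810 to 0.832. These correlations run across genes, which are not independent replicates. More squamous or basal markers were detected in Scaber than in the other lines, but their summed signal was not higher than in UC14. Of 13 such markers with a named probe, 12 were detected on all 3 Scaber arrays, 4 on all UC14 arrays and 6 on all UC7 arrays. The summed linear signal of these markers was 15016 to 16658 in Scaber, 16377 to 17293 in UC14 and 474 to 530 in UC7, and KRT13 alone had a mean of 13.72 (log2) in UC14. Of 8 luminal markers, 2 were detected on all Scaber arrays, 4 on all UC14 arrays and 6 on all UC7 arrays. All 6 general epithelial markers were detected in every line. Of 4 mesenchyme markers (VIM, ZEB1, CDH2 and SPARC), 2 were detected on all arrays of each line. Their summed signal was 734 to 796 in Scaber, 729 to 866 in UC14 and 3518 to 4192 in UC7. The smooth muscle markers DES, MYH11, CNN1 and ACTG2 were detected on all arrays of no line, and PTPRC and CD3E, which define leukocytes, on none of the 9 arrays.

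The basal keratins separated Scaber from both lines. KRT5, the type II keratin of basal cells, read 10.98, 10.96 and 10.86 on the Scaber arrays (normalized log2 signal), 9.80, 9.82 and 9.49 in UC14, and 4.92, 4.65 and 4.84 in UC7, where it was below detection. Scaber was highest on every array, UC14 intermediate and UC7 at background. The difference from UC14 was 1.23 ± 0.12 (log2, SE, n = 3 arrays per line here and throughout, limma adjusted p = 6.50e-06), and Scaber was at least 63.1-fold above UC7 (adjusted p = 9.18e-11). Where a pair of differences or bounds is given without naming the lines, the first is against UC14 and the second against UC7. A bound is given where a gene was undetected on all 3 arrays of the dimmer line, and it sets the brighter line against the lowest signal detected there. KRT14, the type I partner of KRT5, read 10.44, 10.64 and 10.46 in Scaber, 4.70, 5.38 and 4.93 in UC14 and 4.46, 4.34 and 4.47 in UC7. It was detected in Scaber alone, at least 26.2-fold above UC14 (adjusted p = 5.57e-10) and at least 47.0-fold above UC7 (adjusted p = 3.72e-10).

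KRT15, another basal keratin, was higher by 3.08 ± 0.12 than in UC14 and by 3.96 ± 0.12 than in UC7. KRT16, a keratin of activated and squamous epithelium, was higher by 6.01 ± 0.15 than in UC7 but by only 0.61 ± 0.15 than in UC14 (adjusted p = 0.00362). KRT13, the keratin of intermediate urothelial cells and of wet stratified epithelia, ran the other way between the lines: it lay below UC14 (-7.14 ± 0.10) and above UC7 (1.09 ± 0.10). KRT6C was below detection in Scaber and detected in both other lines, at least 7.74-fold higher in UC14 and 3.50-fold higher in UC7. The KRT6 genes are nearly identical in sequence, and a probe may read more than its named gene. Over the 9 tested basal and squamous keratins, 4 were higher than both lines (44.4%, against 18.6% of all genes) and 1 was lower.

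Desmosomal and cadherin genes were the next group. Of 13 tested members, 7 were higher than both lines (53.8%, against 18.6% of all genes) and 2 lower (15.4%, against 20.2%). DSG3, desmoglein 3 of stratified epithelium, read 10.75, 11.08 and 10.56 in Scaber, 4.70, 4.60 and 4.51 in UC14 and 4.49, 4.33 and 4.43 in UC7. The 3 Scaber arrays stood alone above background, at least 31.9-fold above UC14 (limma adjusted p = 8.26e-11) and at least 57.4-fold above UC7 (adjusted p = 1.43e-10). PKP1, plakophilin 1, was likewise detected in Scaber alone, at least 16.4-fold above UC14 and 29.5-fold above UC7. DSC3, desmocollin 3, was higher by 3.60 ± 0.10 than in UC14 and by 5.25 ± 0.10 than in UC7. CDH3, P-cadherin of basal cells, was higher by 1.96 ± 0.10 and 1.37 ± 0.10. PKP2, the plakophilin of simple epithelia, was lower, at -1.25 ± 0.13 against UC14 and -2.68 ± 0.13 against UC7. CDH1, E-cadherin, was lower, at -0.28 ± 0.10 against UC14 (adjusted p = 0.0286) and -0.94 ± 0.10 against UC7, but the first difference turned to 0.16 under median scaling and lost its call without Scaber replicate 1 (-0.23) or UC14 replicate 2 (-0.21). The median of the list was 0.47 against UC14 and 0.69 against UC7, and the latter became -0.05 under median scaling.

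Clade B serpins are mainly intracellular protease inhibitors, and several of them are expressed in squamous epithelium. Those that passed both tests were all higher in Scaber. SERPINB3, the squamous cell carcinoma antigen 1, read 11.18, 11.26 and 11.25 in Scaber, 5.07, 4.47 and 4.44 in UC14, and 4.46, 4.50 and 4.84 in UC7. It was undetected outside Scaber, and the bounds were 43.1-fold against UC14 (limma adjusted p = 3.03e-10) and 77.5-fold against UC7 (adjusted p = 3.72e-10). SERPINB4, its near-identical neighbour, was higher by at least 11-fold than in UC14 and by 4.36 ± 0.14 than in UC7, where 1 of 3 arrays detected it. The closeness of the pair leaves the assignment of signal between them uncertain. SERPINB13 was at least 22.3-fold above UC14 and 40.1-fold above UC7, while SERPINB1 was at least 26.4-fold above UC14 but only 1.51 ± 0.13 above UC7. Of 7 tested clade B serpins, 5 were higher than both lines (71.4%, against 18.6% of all genes) and none was lower.

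Several S100 proteins are calcium-binding alarmins of squamous epithelium and of neutrophils. Over 15 tested S100 genes, 4 were higher than both lines (26.7%, against 18.6% of all genes) and 1 was lower, with medians of 0.06 against UC14 and 0.28 against UC7. Under median scaling 2 were higher and 2 lower, and the medians were 0.48 and -0.39. S100A7, psoriasin, read 10.27, 10.41 and 10.43 in Scaber, 5.02, 4.63 and 4.71 in UC14 and 6.48, 6.30 and 6.15 in UC7. The Scaber arrays were highest, with UC7 low and UC14 undetected. The bound was 23.7-fold against UC14, and the difference from UC7 was 4.06 ± 0.13 (limma adjusted p = 1.59e-09). S100A7A, a close copy of S100A7 whose probe may share signal with it, was at least 1.62-fold above UC14 and 1.66 ± 0.16 above UC7. S100A8 and S100A9, the subunits of calprotectin, were higher than in UC14 by 2.51 ± 0.11 and 2.28 ± 0.11. Against UC7, S100A8 was higher by 0.36 ± 0.11 (adjusted p = 0.0106), but this became -0.26 under median scaling and lost its call without UC7 replicate 2 (0.27). S100A9 was higher than in UC7 by 0.28 ± 0.11 (adjusted p = 0.0406), which became -0.068 under median scaling and lost its call whenever any 1 of the Scaber or UC7 arrays was left out (0.26 to 0.30). S100A16 was lower than in both lines, at -0.56 ± 0.09 and -2.30 ± 0.09, and the difference from UC14 did not pass under median scaling (-0.19).

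The cornified envelope and squamous differentiation list did not move as a block. Of 33 tested members, 9 were higher than both lines (27.3%, against 18.6% of all genes) and 4 were lower (12.1%, against 20.2%). A further 11 passed both tests with opposite signs, and the median was 0.85 against UC14 and -0.73 against UC7. PI3, the elastase inhibitor elafin, was at least 9.62-fold above UC14 and 3.45 ± 0.11 above UC7. CLCA2, a basal-cell adhesion and channel-regulator protein, was detected in Scaber alone, at least 6.77-fold above UC14 and 12.2-fold above UC7. DMKN, dermokine of the suprabasal epidermis, was at least 23.8-fold above UC14 and 3.19 ± 0.09 above UC7, and KLK8, a kallikrein of the outer epidermis, was detected in Scaber alone, at least 2.70-fold and 4.86-fold above them.

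TGM1, the transglutaminase that crosslinks the envelope, read 7.65, 7.93 and 7.34 in Scaber, 5.96, 4.90 and 5.05 in UC14 and 5.19, 5.07 and 5.21 in UC7. Scaber was higher on every array, by at least 3.58-fold against UC14 and 2.48 ± 0.25 against UC7 (limma adjusted p = 6.94e-06). SPRR1B, a small proline-rich envelope precursor, was higher by 2.53 ± 0.24 and 1.72 ± 0.24. Its neighbour SPRR1A lay between the lines, 0.85 ± 0.17 above UC14 and below UC7 (-1.02 ± 0.17). SPRR3 was undetected in Scaber and at least 2.07-fold higher in UC14 and 4.70-fold higher in UC7. CST6, cystatin M/E of the cornifying layers, was lower, at -1.28 ± 0.14 and -2.73 ± 0.14. TGM5 was undetected in Scaber and at least 18.3-fold higher in UC14. It also passed against UC7 (adjusted p = 3.64e-05), with no minimum fold to give, and 1 of its 3 probes gave this result. IVL, involucrin, was detected on 1 of 3 Scaber arrays, none of UC14 and 2 of UC7, and was not tested.

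**Figure D2:**
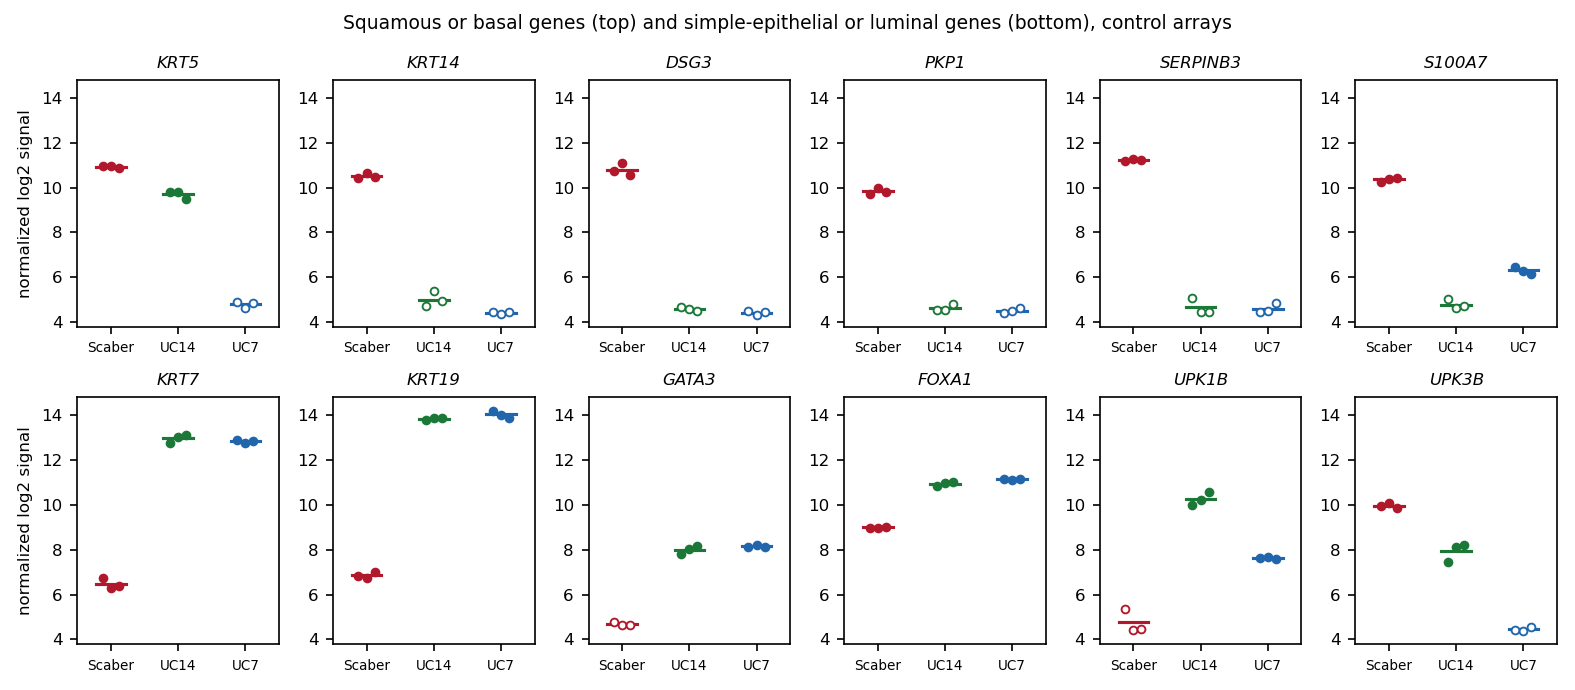
Normalized log2 signal (y axis) of 12 genes on the 3 control arrays of each line (x axis). Points are arrays, bars are means, and filled points mark genes detected on all 3 arrays of the line. KRT14, DSG3, PKP1 and SERPINB3 are detected in Scaber alone, KRT7 and KRT19 are over 6 log2 units lower in Scaber than in both lines, and UPK3B is highest in Scaber.

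Simple-epithelial keratins were among the genes farthest below both lines. KRT19 read 6.82, 6.75 and 7.02 in Scaber, 13.80, 13.88 and 13.87 in UC14 and 14.20, 14.02 and 13.88 in UC7. KRT7 read 6.74, 6.29 and 6.38 in Scaber, 12.77, 13.04 and 13.10 in UC14 and 12.89, 12.75 and 12.85 in UC7. Both were detected on every array, at a high level in UC14 and UC7 and a low one in Scaber. KRT19 was lower, at -6.98 ± 0.11 against UC14 (limma adjusted p = 2.09e-11) and -7.17 ± 0.11 against UC7 (adjusted p = 5.67e-11), and KRT7 at -6.50 ± 0.14 and -6.36 ± 0.14. KRT8, the type II keratin of simple epithelia, was lower, at -1.65 ± 0.11 and -2.77 ± 0.11. ST14, the membrane protease matriptase, was lower, at -2.34 ± 0.12 and -2.75 ± 0.12. ESRP1, an epithelial splicing regulator, was the only one of 11 tested general epithelial genes above both lines, by 1.07 ± 0.14 and 1.47 ± 0.14. That is 9.09%, against 18.6% of all genes, while 8 were lower (72.7%, against 20.2%). Under median scaling 2 were higher and 6 lower.

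Of 28 tested luminal urothelial genes, 14 were lower in Scaber than in both lines (50%, against 20.2% of all genes), 2 were higher and 4 had opposite signs. Of its tested members, 4 are also in the general epithelial list. GATA3 read 4.77, 4.64 and 4.66 in Scaber, 7.81, 8.05 and 8.16 in UC14 and 8.12, 8.23 and 8.13 in UC7. It was at background in Scaber and similar in the other lines, which were at least 6.79-fold (adjusted p = 1.62e-09) and 7.55-fold higher (adjusted p = 1.45e-09). FOXA1 was detected in Scaber but lower, at -1.95 ± 0.09 against UC14 and -2.14 ± 0.09 against UC7. PPARG was lower, at -1.56 ± 0.09 and -0.77 ± 0.09, a call that 1 of its 3 probes gave. VGLL1, a cofactor of TEAD transcription factors, was lower, at -4.32 ± 0.18 and -6.02 ± 0.18, with 1 of 3 Scaber arrays above detection.

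Uroplakins did not share one direction. UPK1B read 5.36, 4.43 and 4.48 in Scaber, 9.98, 10.23 and 10.59 in UC14 and 7.65, 7.68 and 7.59 in UC7, and was detected on 1 Scaber array. It was lower, at -5.51 ± 0.23 against UC14 (limma adjusted p = 1.15e-08) and -2.88 ± 0.23 against UC7 (adjusted p = 1.37e-06). UPK3B read 9.95, 10.07 and 9.84 in Scaber, 7.46, 8.14 and 8.22 in UC14 and 4.44, 4.39 and 4.54 in UC7, where it was undetected. It was thus higher in Scaber, by 2.01 ± 0.18 than in UC14 (adjusted p = 3.22e-06) and by at least 32.0-fold than in UC7 (adjusted p = 1.79e-09), and all 4 of its probes gave this call. UPK1A and UPK2 were undetected in Scaber and in UC14, and were at least 1.26-fold and 2.76-fold higher in UC7. KRT20 and UPK3A were detected on all arrays of no line. FGFR3, a growth factor receptor of luminal papillary tumours, lay between the lines, below UC14 (-3.40 ± 0.11) and 2.71 ± 0.11 above UC7.

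The named Scaber-high genes include the 12 with the highest value of the smaller fitted difference. Most were undetected in a line, so the order among the 12 is not established. MMP1, the interstitial collagenase, read 11.93, 11.59 and 11.83 in Scaber, 4.46, 4.55 and 4.53 in UC14 and 4.46, 4.76 and 4.67 in UC7. It was detected in Scaber alone, at least 63.3-fold above UC14 (limma adjusted p = 2.09e-11) and 114-fold above UC7 (adjusted p = 5.67e-11). DKK3, a secreted protein of the Dickkopf family, was at least 48.9-fold and 87.9-fold above them, and CCN5, a secreted matricellular protein, at least 46.0-fold and 82.6-fold. TPM2, a tropomyosin, was at least 52.4-fold above UC14 and 6.17 ± 0.24 above UC7. CD70, the ligand of CD27 on lymphocytes, was at least 41.0-fold above UC14 and 6.13 ± 0.11 above UC7, and RAB38, a small GTPase of lysosome-related organelles, at least 62.0-fold and 6.04 ± 0.16. CTHRC1, a secreted collagen triple helix repeat protein, was higher by 6.94 ± 0.24 and 5.76 ± 0.24. The others were SERPINB3, DSG3, IFI27, MAGEA4 and MAGEA9B.

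The 12 genes named by the same rule in the low direction include MGST1, the microsomal glutathione S-transferase, and their order is likewise not established. MGST1 read 4.32, 4.44 and 4.30 in Scaber, 12.07, 11.91 and 11.56 in UC14 and 13.01, 12.98 and 12.80 in UC7. It was undetected in Scaber and bright elsewhere, at least 97.2-fold higher in UC14 (limma adjusted p = 2.74e-11) and 206-fold higher in UC7 (adjusted p = 5.67e-11). Genes undetected in Scaber further included DPYSL3, a cytoskeletal phosphoprotein best known in neurons (at least 57.0-fold and 18.9-fold higher), and NME4, a mitochondrial nucleoside diphosphate kinase (44.1-fold and 19.5-fold). ALDH7A1, an aldehyde dehydrogenase of lysine breakdown, was at least 46.3-fold and 17.7-fold higher in them, and IGFBP4, an insulin-like growth factor binding protein, 28.4-fold and 19.7-fold. FAM174B, a membrane protein, was at least 12.6-fold and 10.4-fold higher, and KCNS3, a potassium channel subunit, 12.1-fold and 12.4-fold. CMTM7, a MARVEL-domain membrane protein, was lower, at -5.44 ± 0.14 and -5.67 ± 0.14, and PODXL, the sialomucin podocalyxin, at -4.20 ± 0.12 and -4.58 ± 0.12. KRT19, KRT7 and VGLL1 complete the 12. Over all genes, 206 were detected on the 3 Scaber arrays and on none of the 6 others, and 145 on the 6 others and on no Scaber array.

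The mesenchymal and invasion list holds matrix genes, matrix-degrading enzymes and transcription factors. Of 27 tested members, 14 were higher than both lines (51.9%, against 18.6% of all genes). None was lower (against 20.2%), and 6 had opposite signs. The medians were 1.13 against UC14 and 1.40 against UC7. Under median scaling 13 were higher and 1 lower, and the medians stayed positive (1.45 and 0.71). MMP7, matrilysin, read 12.34, 12.32 and 12.38 in Scaber, 4.30, 4.24 and 4.36 in UC14 and 6.87, 7.07 and 6.80 in UC7. It was at least 93.5-fold above UC14 (limma adjusted p = 1.18e-11) and 5.44 ± 0.10 above UC7 (adjusted p = 5.67e-11). MMP10, stromelysin 2, was at least 15.2-fold above UC14 and 4.67 ± 0.22 above UC7, and LOX, the collagen crosslinking enzyme lysyl oxidase, at least 14.7-fold and 26.5-fold. VIM, vimentin, lay below UC14 (-0.67 ± 0.10) and 0.63 ± 0.10 above UC7, and the second value turned to -0.27 under median scaling. CDH2, one of the mesenchyme markers above, had a lower mean in Scaber (9.18) than in UC7 (11.84).

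The motif TGANTCA, with any middle base, covers the consensus site of AP-1 (TGAGTCA or TGACTCA), a factor known to act at metalloproteinase promoters. The motif also matches TGAATCA and TGATTCA, which differ from that consensus, and the counts below hold all these forms. It was searched on both strands in the 250 bases before the start of each gene with a RefSeq promoter entry. It occurred in 6.60% of all 27305 promoters in the table, in 4.05% of the 9457 tested genes that had an entry, in 43 of 667 genes at least 2-fold higher in Scaber (6.45%), in 18 of 599 at least 2-fold lower (3.01%) and in 9 of 36 at least 16-fold higher (25%). A match is a stretch of letters and not a measured binding site. Upstream stretches of 4 genes, chosen after their values and matches were seen, are shown 5′ to 3′ on the gene's strand (GRCh38.p14, RefSeq), with the match in capitals. They show the variants of the motif's middle base: MMP10 at chr11:102780636-102780755 (minus strand), MMP7 at chr11:102530755-102530874 (minus strand), CLCA2 at chr1:86423951-86424070 (plus strand) and SERPINB13 at chr18:63587196-63587315 (plus strand). The matches of MMP7 and SERPINB13 are consensus forms, and those of MMP10 and CLCA2 are not.
MMP10: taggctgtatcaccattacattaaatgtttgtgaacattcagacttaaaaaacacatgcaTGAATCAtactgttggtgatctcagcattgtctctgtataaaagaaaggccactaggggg
MMP7: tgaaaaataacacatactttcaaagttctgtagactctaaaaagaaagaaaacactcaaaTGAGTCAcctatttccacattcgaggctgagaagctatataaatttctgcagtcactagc
CLCA2: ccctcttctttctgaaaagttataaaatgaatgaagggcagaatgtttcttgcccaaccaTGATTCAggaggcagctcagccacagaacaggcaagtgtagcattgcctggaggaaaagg
SERPINB13: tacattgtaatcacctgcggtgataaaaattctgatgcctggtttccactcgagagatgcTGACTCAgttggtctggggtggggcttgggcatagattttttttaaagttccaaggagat

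Interferon response genes had the highest share of Scaber-high members among the lists with at least 5 tested genes. Of 42 tested, 33 were higher than both lines (78.6%, against 18.6% of all genes), 22 of them at least 2-fold, and 1 was lower. The medians were 2.32 against UC14 and 1.45 against UC7, and 2.78 and 0.64 under median scaling, where 22 were higher than both. IFI27, a mitochondrial protein induced by type I interferon, read 12.74, 12.75 and 12.85 in Scaber, 4.38, 4.36 and 4.41 in UC14 and 6.14, 6.96 and 6.74 in UC7. It was at least 126-fold above UC14 (limma adjusted p = 7.78e-11) and 6.17 ± 0.18 above UC7 (adjusted p = 7.18e-10). IFITM1, a membrane protein that limits viral entry, was detected in Scaber alone, at least 11.2-fold and 20.2-fold above the other lines. OAS2, a sensor of double-stranded RNA, was at least 9.36-fold and 16.8-fold above them, and RSAD2, viperin, at least 6.67-fold above UC14 and 3.61 ± 0.16 above UC7. MX2, an interferon-induced GTPase, was the exception, lower, at -1.68 ± 0.16 and -0.89 ± 0.16. Scaber alone was given an siRNA, UC14 an shRNA and UC7 neither per its label, so that the line and the siRNA cannot be told apart here.

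The interferon-stimulated response element was searched as TTTC, any 2 bases and a second TTTC, on both strands in the same 250 bases. It occurred in 3.07% of all promoters, in 2.42% of the tested genes with an entry and in 21 of the 34 interferon-list genes with one (61.8%). It occurred in 4.65% of genes at least 2-fold higher in Scaber and in 1.84% of those at least 2-fold lower. The stretches of IFI27 at chr14:94110581-94110700 (plus strand) and IFITM1 at chr11:313920-314039 (plus strand) are shown because both genes are described above. Capitals mark matches, and the forms beginning with GAAA are matches on the opposite strand.
IFI27: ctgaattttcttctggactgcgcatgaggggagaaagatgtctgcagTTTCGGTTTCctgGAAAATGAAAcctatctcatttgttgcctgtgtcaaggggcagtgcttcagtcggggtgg
IFITM1: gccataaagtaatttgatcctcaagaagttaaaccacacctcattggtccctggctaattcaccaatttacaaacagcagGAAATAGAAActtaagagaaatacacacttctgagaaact

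Genes of MHC class I presentation load peptides on the cell surface for T cells. Of 17 tested, of which 3 are also in the interferon list, 12 were higher than both lines (70.6%, against 18.6% of all genes) and none was lower. Under median scaling 4 were higher and 1 lower, and the median against UC7 went from 0.85 to 0.12. HLA-B, a class I heavy chain, read 12.91, 12.91 and 12.86 in Scaber, 5.61, 6.38 and 6.69 in UC14 and 11.53, 11.69 and 11.62 in UC7. Scaber was highest, UC7 more than 1 log2 unit lower and UC14 near background, where 2 of 3 arrays detected it. The differences were 6.67 ± 0.22 (limma adjusted p = 1.59e-09) and 1.28 ± 0.22 (adjusted p = 0.000351). HLA-C was higher by 2.63 ± 0.17 and 1.25 ± 0.17, and the second difference did not pass under median scaling (0.38, adjusted p = 0.0624). PSMB10, a subunit of the immunoproteasome that cuts peptides for presentation, was higher by 1.51 ± 0.10 and 1.27 ± 0.10, and ERAP1, which trims those peptides, by 1.49 ± 0.23 and 1.53 ± 0.23. HLA genes vary between individuals and resemble each other, and a probe can bind their alleles unequally, so HLA differences between lines are uncertain.

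Cytokine and interleukin genes were mixed. Of 23 tested members, 8 were higher than both lines (34.8%, against 18.6% of all genes), 2 lower (8.7%, against 20.2%) and 5 had opposite signs. Under median scaling 3 were higher and 2 lower, and the median against UC7 went from -0.08 to -0.84. TNFSF10, the death ligand TRAIL, was higher by 5.00 ± 0.18 than in UC14 and 5.63 ± 0.18 than in UC7, and the chemokine CCL5 by 5.46 ± 0.30 and 4.66 ± 0.30. CXCL1 and CCL20, chemokines for neutrophils and for lymphocytes, were at least 19.2-fold and 1.69-fold above UC14. Their differences from UC7 of 1.05 ± 0.15 and 0.88 ± 0.16 did not pass under median scaling (0.19 and 0.15). PTGS2, cyclooxygenase 2, was lower, at -2.25 ± 0.16 and -2.24 ± 0.16.

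**Figure D3:**
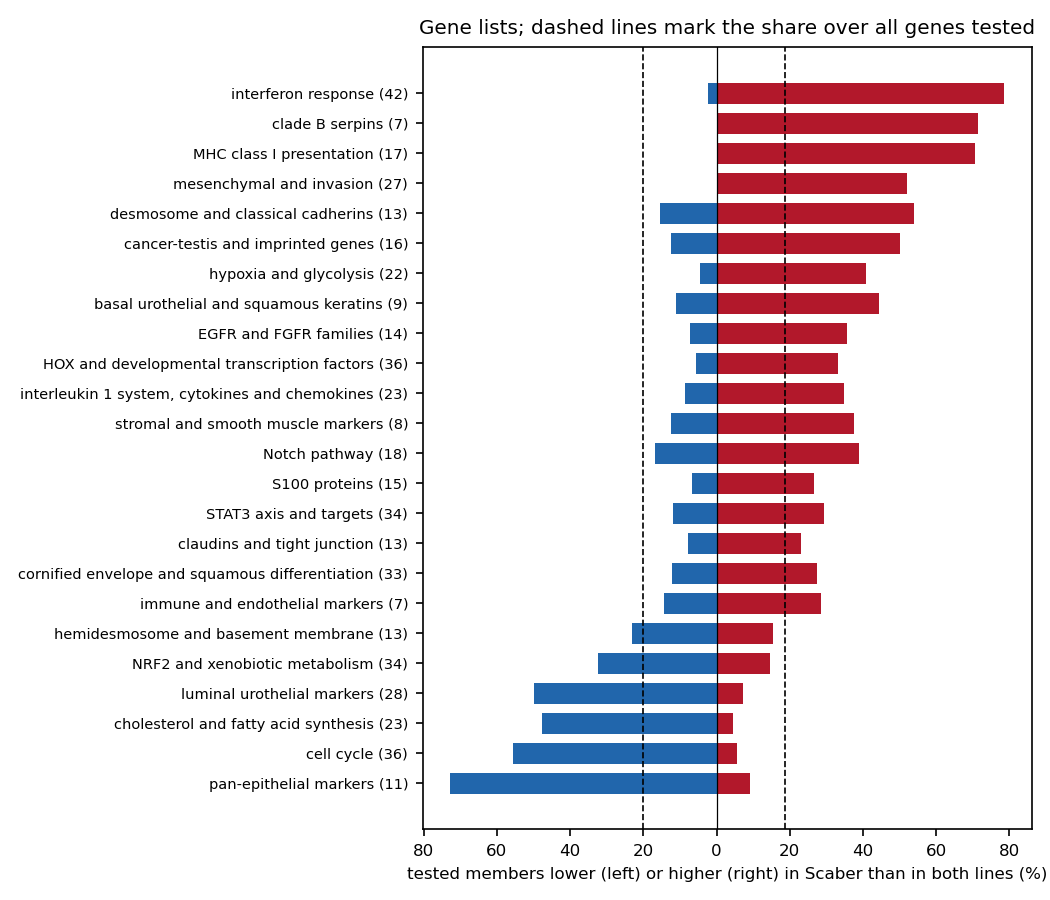
Percent of the tested members of each gene list (number in brackets) that were lower (left, blue) or higher (right, red) in Scaber than in both lines. Dashed lines mark the 20.2% lower and 18.6% higher over all 11715 genes; interferon response genes reach 78.6% higher and general epithelial markers 72.7% lower.

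Proliferation genes were low in Scaber. Of 36 tested cell cycle genes, 20 were lower than both lines (55.6%, against 20.2% of all genes) and 2 were higher (5.56%, against 18.6%). The medians were -0.97 against UC14 and -0.69 against UC7 (-0.57 and -1.55 under median scaling). RRM2, a ribonucleotide reductase subunit, read 6.46, 6.72 and 6.86 in Scaber, 10.14, 10.36 and 10.22 in UC14 and 9.15, 9.24 and 9.11 in UC7. Scaber was lowest on every array, with differences of -3.56 ± 0.12 (limma adjusted p = 1.85e-09) and -2.49 ± 0.12 (adjusted p = 2.81e-08). CCNE1, the G1/S cyclin E1, was lower, at -2.12 ± 0.15 and -3.09 ± 0.15, CCNB1, the mitotic cyclin B1, at -2.18 ± 0.13 and -2.50 ± 0.13, and TOP2A, topoisomerase IIα, at -1.79 ± 0.11 and -1.91 ± 0.11. The 2 exceptions were CDK6, a G1 kinase (1.40 ± 0.12 and 1.35 ± 0.12), and RB1, the retinoblastoma protein that holds cells in G1. RB1 was undetected in UC14, and Scaber was at least 3.00-fold above UC14 and 2.21 ± 0.13 above UC7.

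Of 23 tested cholesterol and fatty acid synthesis genes, 11 were lower than both lines (47.8%, against 20.2% of all genes) and 1 higher (4.35%, against 18.6%). Under median scaling 15 were lower and 0 higher. LSS, lanosterol synthase, was lower, at -2.73 ± 0.14 against UC14 and -1.84 ± 0.14 against UC7, ACACA, acetyl-CoA carboxylase, at -1.73 ± 0.13 and -1.22 ± 0.13, and IDI1, isopentenyl diphosphate isomerase, at -3.43 ± 0.13 and -0.92 ± 0.13. MVK, mevalonate kinase, was lower, at -1.73 ± 0.18 and -1.33 ± 0.18.

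Of 34 tested NRF2 and xenobiotic genes, 5 were higher than both lines (14.7%, against 18.6% of all genes), 11 lower (32.4%, against 20.2%) and 9 of opposite sign. Under median scaling 3 were higher and 9 lower. AKR1B10, an aldo-keto reductase, was higher by 5.20 ± 0.29 and 2.51 ± 0.29, and ALDH3B2, an aldehyde dehydrogenase, by at least 9.11-fold against UC14 and 3.53 ± 0.13 against UC7. ALDH1A3, which makes retinoic acid, was lower, at -2.31 ± 0.12 and -2.23 ± 0.12, and AKR1C3 at -2.52 ± 0.11 and -1.55 ± 0.11. ALDH3A1 was undetected in Scaber, at least 19.3-fold higher in UC14 and 2.10-fold higher in UC7. AKR1C2, one of a group of near-identical reductases, lay below UC14 (-7.12 ± 0.12) and 2.13 ± 0.12 above UC7.

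Of 16 tested cancer-testis and imprinted genes, 8 were higher than both lines (50%, against 18.6% of all genes) and 2 lower (12.5%, against 20.2%). MAGEA4 read 11.23, 11.07 and 11.17 in Scaber, 4.47, 4.41 and 4.89 in UC14 and 4.84, 4.59 and 4.42 in UC7. It was detected in Scaber alone, at least 40.9-fold (limma adjusted p = 1.23e-10) and 73.6-fold (adjusted p = 1.91e-10) above the others. MAGEA9B was at least 31.0-fold above UC14 and 5.96 ± 0.19 above UC7, and MAGEA2 at least 2.95-fold and 5.31-fold. MAGEA genes are near copies of each other, and which member gives a probe's signal is uncertain. PRAME, another tumour antigen, was at least 6.35-fold and 11.4-fold higher. Among imprinted genes, the long noncoding RNA H19 read 9.30, 9.42 and 9.04 in Scaber, 4.32, 4.33 and 4.33 in UC14 and 4.53, 4.34 and 4.56 in UC7, at least 11-fold and 19.7-fold above them. SGCE and PEG10, neighbouring imprinted genes on chromosome 7, were both undetected in Scaber. SGCE was at least 25.8-fold higher in UC14 and 8.33-fold in UC7, and PEG10 at least 17.7-fold and 1.31-fold.

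Among signalling genes, 5 of 14 EGFR and FGFR family genes, 7 of 18 Notch genes and 10 of 34 STAT3 axis genes were higher than both lines (35.7%, 38.9% and 29.4%, against 18.6% of all genes), and 1, 3 and 4 were lower (7.14%, 16.7% and 11.8%, against 20.2%). Under median scaling 3, 8 and 7 were higher and 1, 2 and 1 lower. EGFR was higher by 0.82 ± 0.09 than in UC14 and 0.35 ± 0.09 than in UC7 (limma adjusted p = 0.00613), but the second difference turned to -0.50 under median scaling (adjusted p = 0.00704). The ligands NRG1 and FGF2 were at least 3.8-fold and 1.94-fold above UC14, and 2.74 ± 0.21 and 1.43 ± 0.21 above UC7, while the EGFR ligand TGFA was lower, at -0.99 ± 0.13 and -2.0 ± 0.13. The Notch ligands JAG2 (2.63 ± 0.18 and 2.39 ± 0.18) and DLL1 (1.30 ± 0.14 and 4.87 ± 0.14) were higher. So were HES2, a HES-family repressor (2.21 ± 0.12 and 4.55 ± 0.12), and NUMB, a Notch inhibitor (1.38 ± 0.11 and 1.42 ± 0.11). HES1, a classical Notch target, was lower, at -1.96 ± 0.13 and -0.56 ± 0.13.

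In the STAT3 axis, SERPINA3, the acute-phase antichymotrypsin, was detected in Scaber alone, at least 23.1-fold above UC14 and 41.5-fold above UC7. MUC1, a membrane mucin, was higher by 5.01 ± 0.17 and 2.20 ± 0.17, and OSMR, the oncostatin M receptor, by 2.23 ± 0.11 and 2.33 ± 0.11. FGG, the fibrinogen gamma chain, was detected in Scaber alone, at least 1.35-fold and 2.43-fold above them. CCND1, cyclin D1, and BCL2L1, which inhibits apoptosis, were lower than in UC7, at -1.91 ± 0.16 and -2.44 ± 0.10. They were lower than in UC14, at -0.85 ± 0.16 and -0.48 ± 0.10, and those differences did not pass under median scaling (-0.34 and -0.15). STAT3 itself was not Scaber-specific. It read 9.89, 9.93 and 9.89 in Scaber, 9.37, 9.67 and 9.48 in UC14 and 10.28, 10.40 and 10.30 in UC7, so that Scaber lay between the lines, 0.40 ± 0.10 above UC14 and below UC7 (-0.43 ± 0.10). With a gene's probes averaged, the difference from UC14 was 0.18 and did not pass (adjusted p = 0.172).

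Of 36 tested HOX and developmental transcription factors, 12 were higher than both lines (33.3%, against 18.6% of all genes) and 2 lower. Under median scaling 6 were higher and 3 lower, and the median against UC7 turned from 0.22 to -0.61. The higher genes included IRX3 (2.94 ± 0.16 and 2.79 ± 0.16), IRX4 (at least 3.66-fold and 6.57-fold) and PITX1 (1.43 ± 0.15 and 2.31 ± 0.15), homeobox factors of embryonic patterning. Of 22 tested hypoxia and glycolysis genes, 9 were higher (40.9%, against 18.6% of all genes) and 1 lower (4.55%, against 20.2%). Under median scaling these were 8 and 1. BNIP3, a mitophagy receptor, was higher by 5.41 ± 0.11 and 2.19 ± 0.11, and NDRG1, a stress-induced gene, by 1.84 ± 0.13 and 5.72 ± 0.13. CLDN1, the main claudin of the epidermal barrier, was higher by 3.71 ± 0.16 and 1.54 ± 0.16. Of 13 claudin and tight junction genes, 3 were higher (23.1%, against 18.6% of all genes) and 1 lower (7.69%, against 20.2%), and 1 and 1 under median scaling. Of 13 hemidesmosome and basement membrane genes, 2 were higher (15.4%) and 3 lower (23.1%), near the 18.6% and 20.2% of all genes. Under median scaling 0 were higher and 2 lower. LAMB3, a chain of an epithelial laminin, was higher by 1.87 ± 0.10 than in UC14 and 0.71 ± 0.10 than in UC7 (0.09 under median scaling, which did not pass). ITGB4, the integrin of hemidesmosomes, was lower, at -2.53 ± 0.11 and -1.09 ± 0.11, in 1 of its 2 probes, and with the probes averaged it did not pass against UC7 (-0.33). FRAS1, a basement membrane protein, was lower, at -2.17 ± 0.13 and -1.04 ± 0.13.

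Markers usually assigned to other cell types were few but not absent. Of 8 tested stromal and smooth muscle genes, 3 were higher than both lines (37.5%, against 18.6% of all genes) and 1 was lower (12.5%, against 20.2%). The lower gene was SMTN, smoothelin of the smooth muscle cytoskeleton. It was detected on all arrays and differed at -1.89 ± 0.18 and -0.68 ± 0.18, in 1 of its 2 probes. The 3 higher genes were LUM, the proteoglycan lumican (3.17 ± 0.15 against UC14, at least 101-fold against UC7), PDPN, podoplanin (3.44 ± 0.27, at least 10.9-fold), and FAP, fibroblast activation protein (at least 2.22-fold, 2.17 ± 0.15). CD14, a monocyte receptor, read 10.04, 10.08 and 9.89 in Scaber, 6.40, 4.65 and 5.89 in UC14 and 6.08, 5.79 and 5.82 in UC7, and was higher by 4.36 ± 0.34 and 4.11 ± 0.34. PTPRC and CD3E were undetected on the same arrays, and DES, MYH11, CNN1 and ACTG2 were undetected in Scaber. CD68, a lysosomal protein of macrophages, was higher by 0.61 ± 0.13 and 4.04 ± 0.13, while the endothelial ESAM was undetected in Scaber and at least 2.36-fold higher in UC7. It was below detection in UC14 too. Of 3 tested neuroendocrine genes, none differed from both lines in one direction.

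Some genes placed Scaber midway between the lines. TRIM31, a ubiquitin ligase, was at least 8.48-fold above UC14 and below UC7 (-2.98 ± 0.10). DUSP23, a phosphatase, was at least 4.86-fold above UC14 and below UC7 (-3.64 ± 0.13), and TENM3, a teneurin adhesion receptor, at least 4.65-fold above UC14 and below UC7 (-2.55 ± 0.14). CNTN1, the adhesion protein contactin 1, lay below UC14 (-2.03 ± 0.09) and at least 6.44-fold above UC7. With FGFR3 and AKR1C2 these are the 3 genes in each direction with the highest value of the smaller of the 2 opposite fitted differences. TRIM31, DUSP23 and TENM3 were undetected in UC14 and CNTN1 in UC7, so their order rests in part on values near background. The rule does not rank by the span between UC14 and UC7, which was 8.23 ± 0.10 for KRT13, 6.11 ± 0.11 for FGFR3 and 9.25 ± 0.12 for AKR1C2.

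The Scaber-specific genes were not spread evenly over the chromosomes. On chromosome 21, 56 of 124 tested genes were lower than both lines (45.2%) and 12 higher (9.68%), with medians of -0.83 against UC14 and -0.70 against UC7. MX2 and LSS, described above, lie there. On chromosome 13, 85 of 221 were lower (38.5%) and 13 higher (5.88%), with medians of -0.16 and -1.19. RB1 was one of the 13. Chromosome 14 had the highest share of Scaber-high genes, 100 of 382 (26.2%), and chromosome 22 had 67 of 275 higher (24.4%) and 30 lower (10.9%). Within 10 Mb windows holding at least 20 tested genes, 18 of 28 genes at 30 to 40 Mb of chromosome 13 were lower and none higher. In the other direction, 15 of 29 genes at 90 to 100 Mb of chromosome 11, and 19 of 37 at 80 to 90 Mb of chromosome 2, were higher and none was lower. Neighbouring genes are not independent, DNA copy number was not analysed here, and the windows were singled out after their values were seen.

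**Figure D4:**
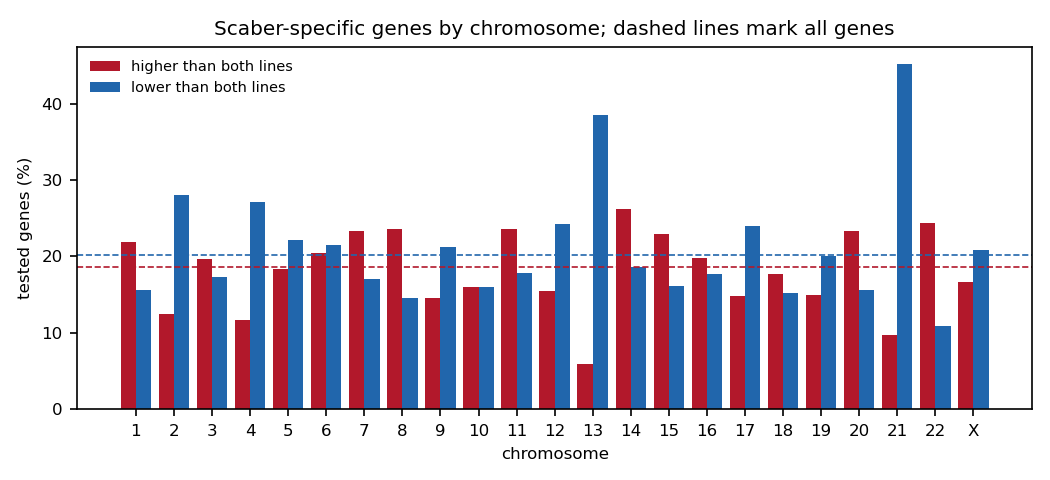
Percent of tested genes on each chromosome (x axis) that were higher (red) or lower (blue) in Scaber than in both lines. Dashed lines mark the shares over all genes, 18.6% and 20.2%; chromosomes 21 and 13 have the highest shares of lower genes, 45.2% and 38.5%.

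The other 9 arrays of the series allowed the line differences to be read on samples that the main comparison did not use. There, Scaber cells had STAT3 siRNA, UC14 cells p63 shRNA and UC7 cells rosiglitazone, so these arrays differ in treatment too. As in the controls, Scaber alone had an siRNA, UC14 an shRNA and UC7 neither per its label. Line and delivery therefore cannot be told apart on these arrays either. Genes and probes were those chosen on the control arrays. This comparison was added after the values of the control arrays had been seen. Scaber was higher than both lines at 2533 genes (21.6%) and lower at 2998 (25.6%). Of the 2174 Scaber-high genes of the controls, 1568 (72.1%) were again higher than both lines, and 15 were lower than both. Of the 2364 Scaber-low genes, 1808 (76.5%) were again lower and 15 were higher. Of the genes at least 2-fold apart, 755 of 900 and 676 of 724 were called again in the same direction.

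By list, 5 of 5 clade B serpins, 7 of 7 desmosome and cadherin genes, 13 of 14 mesenchymal and invasion genes and 27 of 33 interferon genes were again higher than both lines. Of the lower members, 13 of 14 luminal genes and 20 of 20 cell cycle genes were again lower. In total, 20 of 28 luminal and 28 of 36 cell cycle genes were lower there, against 25.6% of all genes. Treated and control means of the other lines could differ. UPK2 had 10.21 and 5.09 in UC14 and 8.24 and 6.70 in UC7, FOXA1 11.60 and 10.95 in UC14 and 10.86 and 11.13 in UC7. Most higher members were also called again among Notch genes (6 of 7) and cancer-testis and imprinted genes (7 of 8). The same held for HOX and developmental factors (10 of 12), MHC class I genes (9 of 12) and hypoxia genes (7 of 9). Smaller shares were called again in other lists: 5 of 9 higher cornified envelope genes, 4 of 8 cytokine genes, 4 of 10 STAT3 axis genes, 1 of 5 NRF2 genes and 0 of 4 S100 genes. Of the lower members, the 1 keratin and the 2 desmosome and cadherin genes were not called again. AKR1B10 was 1.5 ± 0.12 above UC14 but lay below UC7 (-0.58 ± 0.12). S100A7 was at least 4.54-fold above UC14 (limma adjusted p = 8.17e-11) but lay below UC7 (-1.67 ± 0.08, adjusted p = 1.31e-08), and S100A8 was 2.42 ± 0.11 above UC14 and below UC7 (-4.72 ± 0.11). In UC7, S100A7 had a mean of 6.31 on control arrays and 9.57 with rosiglitazone, and AKR1B10 7.97 and 10.21. In Scaber, control and STAT3 siRNA means were 10.37 and 7.90 for S100A7 and 11.63 and 9.81 for S100A8. For AKR1B10 they were 10.48 and 9.63. The differences of these genes from UC7 are therefore not a repeat of the control differences. DSG3 was at least 22.9-fold and 37.6-fold higher in Scaber on these arrays and KRT14 at least 9.9-fold and 16.2-fold, each undetected in the other lines. KRT5 was also undetected in them, with bounds of 44.1-fold and 72.4-fold. In UC14, however, KRT5 had a mean of 9.71 on the control arrays, all detected, and 4.35 with p63 shRNA. Its bound against UC14 is therefore not a repeat of the control difference. KRT19 was lower, at -8.28 ± 0.11 and -8.27 ± 0.11. GATA3, undetected in Scaber, was at least 8.48-fold and 8.96-fold higher in the other lines. IFI27 was higher by 6.48 ± 0.15 and 6.06 ± 0.15. KRT6C was undetected in Scaber as before, and now in UC14 too.

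The Scaber arrays with STAT3 siRNA share the Scaber controls with the comparison between lines, so their values are given side by side and no overlap is drawn. STAT3 read 6.42, 6.84 and 6.65 with the siRNA against 9.89, 9.93 and 9.89 in the controls, a change of -3.26 (limma adjusted p = 4.50e-12), which checks the labels. H19 fell from 9.30, 9.42 and 9.04 to 4.94, 5.27 and 5.45, a change of -4.03 (adjusted p = 3.84e-12). With siRNA it approached its values in UC14 and UC7, and 1 of 3 arrays detected it. SERPINB4 changed by -3.38, CLCA2 by -3.11, S100A7 by -2.47, SERPINB3 by -2.20, TGM1 by -1.94, PI3 by -1.90, S100A8 by -1.82, SERPINA3 by -1.88 and MUC1 by -1.61, all at an adjusted p of 1.16e-05 or less. FGG was undetected with the siRNA and at least 1.8-fold higher in the controls (adjusted p = 1.35e-08). DSC3 changed by -1.20 and KRT14 by -1.48, while DSG3 changed by -0.56 (adjusted p = 0.00810) and MMP1 by -0.39 (adjusted p = 0.0162). KRT5 changed by 0.25 (adjusted p = 0.101) and MAGEA4 by 0.35 (adjusted p = 0.0609), neither past the threshold. Not all squamous genes fell. Means in controls and with siRNA were 7.90 and 8.39 for SPRR1A, 7.89 and 8.13 for SPRR1B, 10.37 and 10.69 for DMKN, and 7.24 and 7.20 for KLK8. Other Scaber-high genes had higher means with siRNA: OAS2 (9.03 and 9.92), TPM2 (11.51 and 12.13) and IFI27 (12.78 and 13.25). FGFR3, from the luminal list, went from 8.78 to 6.48.

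**Figure D5:**
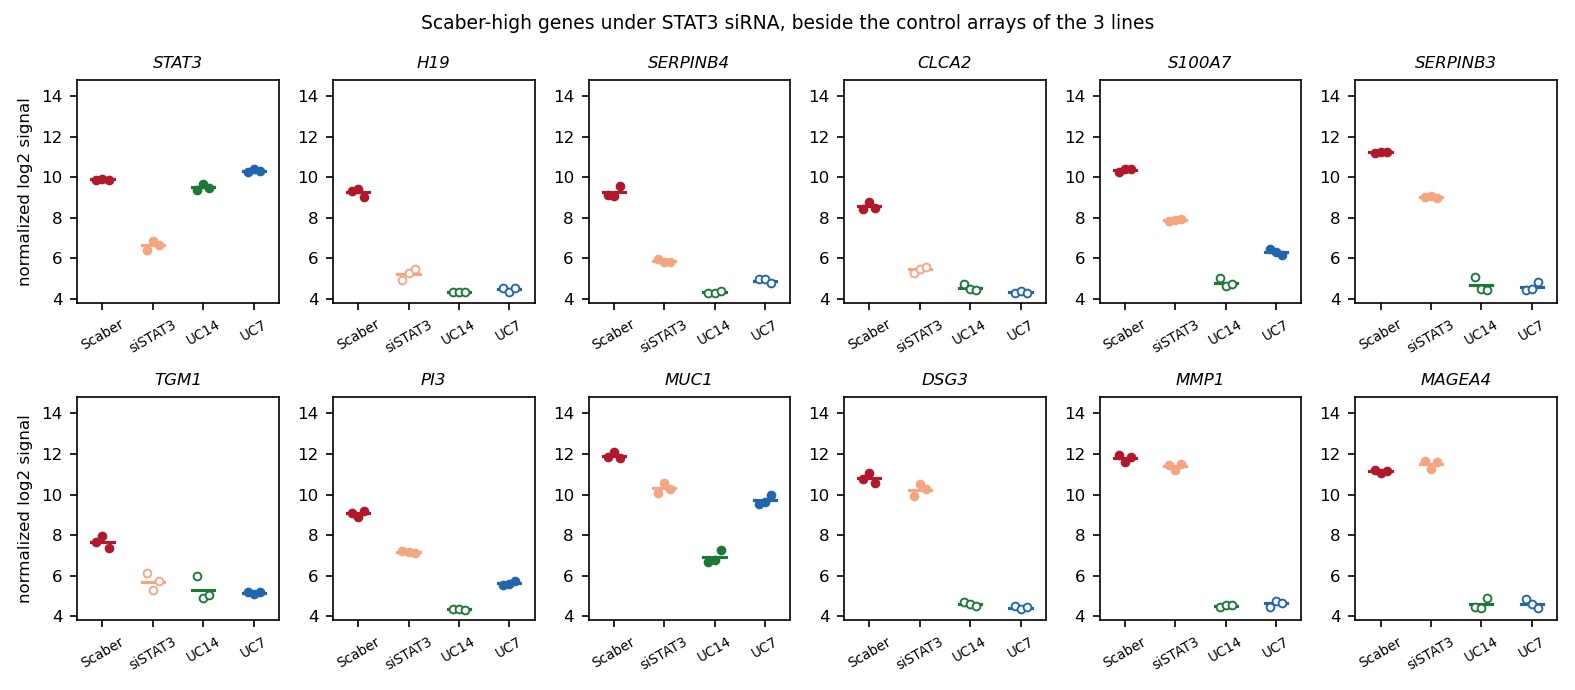
Normalized log2 signal (y axis) of 12 genes on the 3 arrays each of Scaber controls, Scaber with STAT3 siRNA (siSTAT3), UC14 controls and UC7 controls (x axis). Points are arrays, bars are means, and filled points mark genes detected on all 3 arrays of a group; H19 with siRNA (4.94 to 5.45) approaches the other lines, while MMP1 with siRNA (11.19 to 11.52) does not.

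At the threshold, SPPL2B (adjusted p = 0.0498 against UC7) was just inside the Scaber-specific set and EPHA8 (adjusted p = 0.0501) just outside. P2RY2, 1.00 above UC14 and 1.91 above UC7, was just inside the 2-fold subset, and SLC35A4, at -1.0 and -1.46, just outside. These 4 genes are given for the threshold only.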

How the data were processed

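Members and gene lists were chosen with earlier results of these data known. Per the file headers, the authors deposited non-normalized signal intensity values and detection p-values from GenomeStudio for 47323 probes on 18 arrays, and log2 values that equalled the log2 of quantile-normalized raw signals within 0.000114. The submitters' processing notes name limma, with no version. Here, limma 3.58.1 in R 4.3.3 corrected the background with normexp (parameters from the detection p-values, offset 16), quantile-normalized all 18 arrays and took log2. A platform table named 30113 probes by 1 gene symbol; 17202 were not listed and 8 had several symbols. Probes were kept when detected (p under 0.01) on all 3 arrays of at least 1 control group, leaving 15799 named probes, and the brightest probe stood for each of 11715 genes. Group means of the 9 control arrays were fitted with lmFit and eBayes, with Benjamini-Hochberg adjustment over all genes (two-sided, adjusted p under 0.05). Scaber with STAT3 siRNA was compared in a fit of all 18 arrays and 6 groups. The number of arrays limits the precision. The named genes are the 12 Scaber-specific genes in each direction with the highest value of the smaller fitted difference, up to 4 per direction in each of 25 lists, a standing set of 30 markers, and the 3 genes each way with opposite signs, by the same measure. The fitting was tested on simulated data. KRT6A and TP63 had no named probe and were not analysed here. Replicate numbers did not pair the arrays (correlations of deviations -0.149 to 0.0941).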

Additional observations from a re-analysis of the deposited data

How the results depend on the processing

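Without background correction, and equally with the authors' deposited values, the genes at least 2-fold higher than both lines numbered 565 and those lower 346, and an offset of 50 gave 457 lower. With median scaling the Scaber-specific genes numbered 1262 higher and 2048 lower, and the 2-fold higher genes 531. Scaber was then lower than UC14 at 2338 genes, higher than UC7 at 1531 and lower at 8146, and UC14 was higher than UC7 at 734 and lower at 9437. Of the 2174 higher and 2364 lower genes, 1100 and 1528 were called again in the same direction and none turned. Requiring detection on all 9 arrays left 1421 higher genes and 397 at 2-fold, 2270 higher than UC14 and 3150 lower than UC7, and 2583 lower in UC14 than in UC7. Fewer genes were tested there, and for the other settings the cause was not tested. Under median scaling 5 named differences turned sign: CDH1 against UC14 (0.16), and EGFR (-0.50), S100A8 (-0.26), S100A9 (-0.068) and VIM (-0.27) against UC7. UPK2 passed against UC14 (-0.47) without UC14 replicate 1.

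Leaving out 1 array at a time gave 2014 to 2218 higher and 2176 to 2461 lower Scaber-specific genes, and 882 to 919 and 714 to 750 at 2-fold. Scaber was then higher than UC14 at 3590 to 3849 and lower at 3820 to 4125 genes, and higher than UC7 at 3466 to 3873 and lower at 4669 to 5139. UC14 was higher than UC7 at 3421 to 3759 and lower at 4468 to 4792. With the replicate number as a block, 2131 genes were higher and 2303 lower; the numbers name arrays without pairing them.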
